A study of Mus musculus with 56 samples.

Results

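The genes described here are 10 mouse genes of the proinflammatory cytokine and inflammasome group: Tnf, Il1a, Il1b, Il1rn, Il6, Il18, Nlrp3, Casp1, Casp4 and Pycard. They were chosen by symbol, and each of the 10 has a row among the 23418 genes of the bulk count table, in the FPKM files and among the 27998 genes of the single-cell matrix. Tnf encodes tumour necrosis factor, Il6 interleukin-6, and Il1a and Il1b the 2 agonist forms of interleukin-1, whose receptor is blocked by the antagonist that Il1rn encodes. Nlrp3 is a sensor that, with the adaptor ASC (Pycard), assembles an inflammasome around caspase-1 (Casp1). Caspase-1 cuts the inactive precursors of interleukin-1 beta and interleukin-18 and gasdermin D, whose fragments open pores in the cell membrane. Casp4, also known in the mouse as caspase-11, senses bacterial lipopolysaccharide inside the cell. In microglia, the resident macrophages of the brain, Tnf, Il1b and Nlrp3 are commonly induced through NF-kB, while ASC and caspase-1 are usually present beforehand.

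The study followed the IL-33, ST2 and AKT axis in mouse microglia, in 56 libraries. IL-33 is a cytokine of the interleukin-1 family and ST2, encoded by Il1rl1, is its receptor. Cultured wild-type B6 microglia from pups of postnatal day 5 to 8 received IL-33 at 200 ng/ml for 3 h (n = 7) or stayed in medium (n = 7) after 7 to 9 days in vitro. The culture protocol also names GSK-J4 (0.2 uM for 1 h), and it is not clear from the labels which cultures received it. Cortical cells of day 10 carriers of the Mapttm1(EGFP)Klt allele, on a B6/129 background, were sorted into Tau-GFP plus (n = 8) and Tau-GFP negative (n = 8). In that allele the green fluorescent protein stands under the promoter of Mapt, which is active in neurons. Cortical microglia of B6/C57 mice of day 9 were sorted, by how strongly polarised mitochondria took up the dye TMRM, into TMRM high (n = 10) and TMRM low (n = 8). Cortical CD11b-selected cells were profiled one by one from ST2 KO (n = 2), ST2 Het (n = 2), wild-type P28 (n = 2) and wild-type P9 (n = 2) B6 mice. The ST2 KO and ST2 Het mice were both of day 9, and the ST2 Het mice carry 1 altered allele. Nothing in the labels says which libraries came from separate animals or cultures, so a p-value measures the spread between these libraries, which may be partly technical.

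Bulk libraries of the count table held 7709047 to 11826389 expected counts, and no read depth is known for the TMRM libraries. Single-cell libraries kept 672 to 2987 cells, with a median of 2244 to 5936 UMIs (unique molecular identifiers, each marking 1 captured RNA molecule) per cell. Of 15335 kept cells, 14391 were microglia-like by 10 fixed markers, and 274 barcodes occurred in more than 1 library. All 10 microglial markers were detected in every group. A result of bulk libraries cannot tell apart fewer cells of a type and less RNA per cell. Levels are given as CPM, which divides counts by TMM-scaled library totals, or as FPKM, which also divides by transcript length, with mean ± SD. The CPM of cell classes and of clusters divide UMIs by plain UMI totals instead, so they can differ slightly from the library levels. A gene is called higher or lower at an adjusted p under 0.05. Where groups are said not to overlap, the share of all genes for which this holds was not counted. The comparisons ran edgeR's quasi-likelihood test on counts and limma on log2(FPKM + 1), with Benjamini-Hochberg adjustment over all genes tested. A log2 fold change is given ± its standard error (SE).

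The promoters of the 5 genes called in at least 3 of the comparisons are shown to locate 2 motifs that are often tied to inflammatory induction. The motifs are the 10-base consensus of NF-kB and the AP-1 site TGANTCA, searched on both strands. Each line gives the 250 bases before the transcription start from RefSeq on GRCm38.p6, 5′ to 3′ on the gene's strand, and capitals mark matches.
Tnf, chr17:35202008-35202257, minus strand: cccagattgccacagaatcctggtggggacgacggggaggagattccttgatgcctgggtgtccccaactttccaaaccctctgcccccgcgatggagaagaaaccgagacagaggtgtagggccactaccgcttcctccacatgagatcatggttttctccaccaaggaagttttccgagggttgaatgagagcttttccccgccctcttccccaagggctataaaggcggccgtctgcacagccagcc
Il1b, chr2:129371140-129371389, minus strand: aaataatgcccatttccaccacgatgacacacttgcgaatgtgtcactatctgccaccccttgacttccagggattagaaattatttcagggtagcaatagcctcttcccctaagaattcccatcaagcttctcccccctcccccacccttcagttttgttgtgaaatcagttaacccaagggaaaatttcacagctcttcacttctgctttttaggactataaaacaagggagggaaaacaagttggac
Il1a, chr2:129309973-129310222, minus strand: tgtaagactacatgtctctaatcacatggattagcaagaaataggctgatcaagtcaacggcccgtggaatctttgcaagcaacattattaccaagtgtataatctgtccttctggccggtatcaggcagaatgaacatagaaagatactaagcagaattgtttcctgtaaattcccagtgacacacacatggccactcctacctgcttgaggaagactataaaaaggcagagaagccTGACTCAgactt
Nlrp3, chr11:59541319-59541568, plus strand: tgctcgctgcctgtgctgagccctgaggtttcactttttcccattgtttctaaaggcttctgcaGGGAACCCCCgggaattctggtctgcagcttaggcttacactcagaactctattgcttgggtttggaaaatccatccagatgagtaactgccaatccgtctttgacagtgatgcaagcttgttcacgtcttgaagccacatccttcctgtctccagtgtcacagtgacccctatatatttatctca
Casp4, chr9:5308610-5308859, plus strand: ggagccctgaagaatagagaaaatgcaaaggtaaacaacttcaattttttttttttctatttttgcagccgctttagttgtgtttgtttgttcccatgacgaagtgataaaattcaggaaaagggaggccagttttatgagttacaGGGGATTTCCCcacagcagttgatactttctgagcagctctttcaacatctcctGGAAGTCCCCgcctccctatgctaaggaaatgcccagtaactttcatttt
The 2 NF-kB places of Casp4 hold 3 matches, since 2 of them overlap by all but 1 base. The single match of Nlrp3 is an NF-kB match and that of Il1a is an AP-1 match. In the lines for Tnf and Il1b these letters were not found. RefSeq gives Nlrp3 and Casp4 2 starts each: the Nlrp3 window shown is the one with a match, and its other window (chr11:59542436-59542685) has none, while the 2 Casp4 windows overlap and hold the same number of matches. All 10 genes had at least 1 such window, 14 in all. An NF-kB match was present in 4 of the 14 windows, of 3 genes (Il6, Nlrp3 and Casp4), against 7.25% of all 32851 windows. An AP-1 match was present in 3 windows, of Il1a, Il1rn and Il6, against 6.75% of all windows.

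The genes lie on 6 chromosomes (GRCm38, GENCODE vM21). Il1a (chr2:129299610-129309972) and Il1b (chr2:129364570-129371139) are neighbours on the minus strand of chromosome 2. Casp1 (chr9:5298517-5307265) and Casp4 (chr9:5308828-5336783) are adjacent on the plus strand of chromosome 9. An annotated antisense transcript, Il1bos, overlaps Il1b, and other transcripts overlap Il1a, Il18 and Pycard. Since the counting is not stated to use strand, reads of Il1b and Il1bos cannot be told apart in the bulk libraries. Casp1 and Casp4 are related in sequence, and how shared reads were divided between them is not stated for the FPKM.

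**Figure D1:**
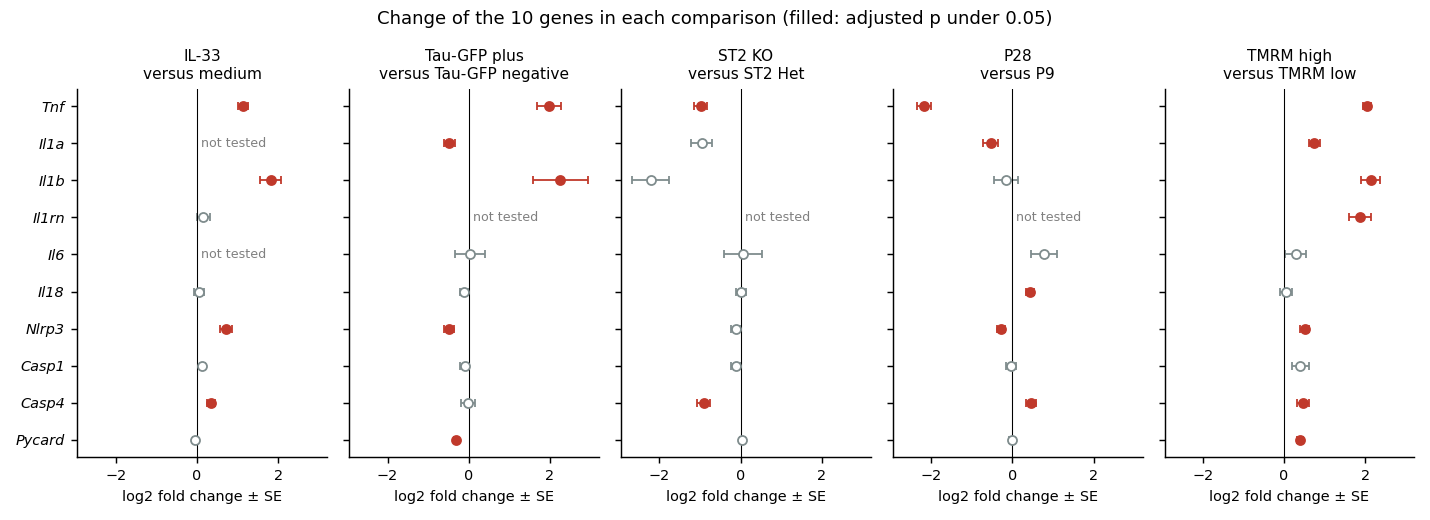
Log2 fold change (x axis) of each of the 10 genes (rows) in the 5 comparisons (panels), with bars of 1 SE and filled points for an adjusted p under 0.05. Tnf was higher with IL-33, in Tau-GFP plus and in TMRM high, and lower in ST2 KO and at P28, whereas Casp1 passed in none of the 5.

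IL-33 was compared with medium to ask which genes the cytokine moves in cultured microglia. Tnf, Il1b, Nlrp3 and Casp4 rose, and no member fell, while Il1rn, Il18, Casp1 and Pycard did not pass the test. That is 4 of 8 members tested, where 7.71% of all 10814 genes were called, 4.21% higher and 3.5% lower. The members' median log2 change was 0.25, against -0.01 over all genes.

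Tnf had 107, 145 and 167 CPM (lowest, median and highest) with IL-33, against 49.3, 59.5 and 89.2 CPM in medium. All 7 IL-33 libraries lay above all 7 medium libraries. The means were 145 ± 21.3 and 65.9 ± 15.1 CPM, a log2 fold change of 1.14 ± 0.12 (adjusted p = 2.9e-06). Il1b had 16.02, 24.7 and 47.8 CPM with IL-33, against 3.07, 8.67 and 16.3 CPM in medium, and the groups overlapped only between 1 library of each. Its log2 fold change was the largest among the tested members, 1.81 ± 0.26 (adjusted p = 8.5e-05). Il1a, which is almost silent in these cultures, had 0.734, 2.17 and 9.01 CPM with IL-33, against 0, 0.361 and 0.534 CPM in medium. The groups did not overlap, yet Il1a fell below the default expression filter. With no filter its log2 fold change was 3.32 (adjusted p = 2.6e-04). Il6 was listed at 0 in 5 of 7 IL-33 libraries and in 6 of 7 medium libraries, and was not tested.

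Among the inflammasome genes, the sensor Nlrp3 had 27.9, 43.9 and 58.6 CPM with IL-33, against 16.8, 27.2 and 39.7 CPM in medium, a log2 fold change of 0.70 ± 0.15 (adjusted p = 0.0042). Casp4 stood at 12.9 ± 0.923 CPM in IL-33 cultures and 10.1 ± 1.25 CPM in medium cultures (0.35 ± 0.10, adjusted p = 0.041). The Casp4 call was lost without the low-count filter (adjusted p = 0.086). It was also lost when any of 10 of the 14 libraries was left out, all but IL-33 replicate 1 and medium replicates 1, 4 and 7. Casp1, the effector protease, had 67.2 ± 2.28 CPM in IL-33 cultures and 61.3 ± 5.35 CPM in medium cultures (0.13 ± 0.06, adjusted p = 0.19). The adaptor Pycard had 156 ± 9.45 and 162 ± 12.9 CPM (-0.06 ± 0.05, adjusted p = 0.63). Il18 stood at 7.17 ± 0.879 CPM in IL-33 cultures and 6.91 ± 0.809 CPM in medium cultures (adjusted p = 0.89). Il1rn, the antagonist, stood at 12.4 ± 2.35 and 11.2 ± 3.02 CPM (adjusted p = 0.70).

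Of the 16 further TNF pathway genes, 14 were tested, 6 rose and none fell, where 7.71% of all genes were called. Traf1, a receptor adaptor, averaged 21.3 ± 2.14 CPM in IL-33 cultures and 9.14 ± 1.19 CPM in medium cultures (1.22 ± 0.10, adjusted p = 8.8e-08). Birc3, a ubiquitin ligase of the TNF receptor complex, stood at 72.9 ± 5.90 and 40.2 ± 5.81 CPM (0.86 ± 0.08, adjusted p = 2.7e-07). Tnfrsf1b, the second TNF receptor, Adam17, the protease that sheds TNF, and Tnfaip3, an inhibitor of NF-kB signalling, rose by 0.45, 0.30 and 0.35 on the log2 scale. Of 18 IL-1 family receptors, decoys and adaptors, 10 were tested and 2 rose. These were Irak3, an inhibitory kinase of the pathway (0.74 ± 0.07, adjusted p = 8.7e-07), and the adaptor Myd88 (0.20 ± 0.05, adjusted p = 0.013). Socs3, a feedback inhibitor of IL-6 receptor signalling, rose to 21.6 ± 1.45 CPM with IL-33, against 8.14 ± 4.09 CPM in medium (1.40 ± 0.22, adjusted p = 2.3e-04), as the single call among 8 tested genes of that pathway. Among 24 tested inflammasome and pyroptosis genes, Ninj1, which ruptures the dying cell's membrane (0.49 ± 0.04, adjusted p = 2.5e-07), and Mefv, the sensor pyrin (1.11 ± 0.27, adjusted p = 0.011), rose. Of 5 tested other cytokines none was called in either direction. Of 14 tested immediate early and dissociation-stress genes 5 rose, led by Nfkbia (0.65 ± 0.05, adjusted p = 6.0e-08), and Atf3 fell (-0.35). Border macrophage markers summed to 1307 to 1678 CPM with IL-33 and 1177 to 1684 CPM in medium, with none called, and 4 of 10 microglial markers were called lower (sums of 4874 to 6058 CPM, against 6037 to 6565 CPM). Of 5 tested monocyte markers 2 were called higher (sums of 369 to 529 CPM, against 321 to 564 CPM). Their part in the member changes was not tested.

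**Figure D2:**
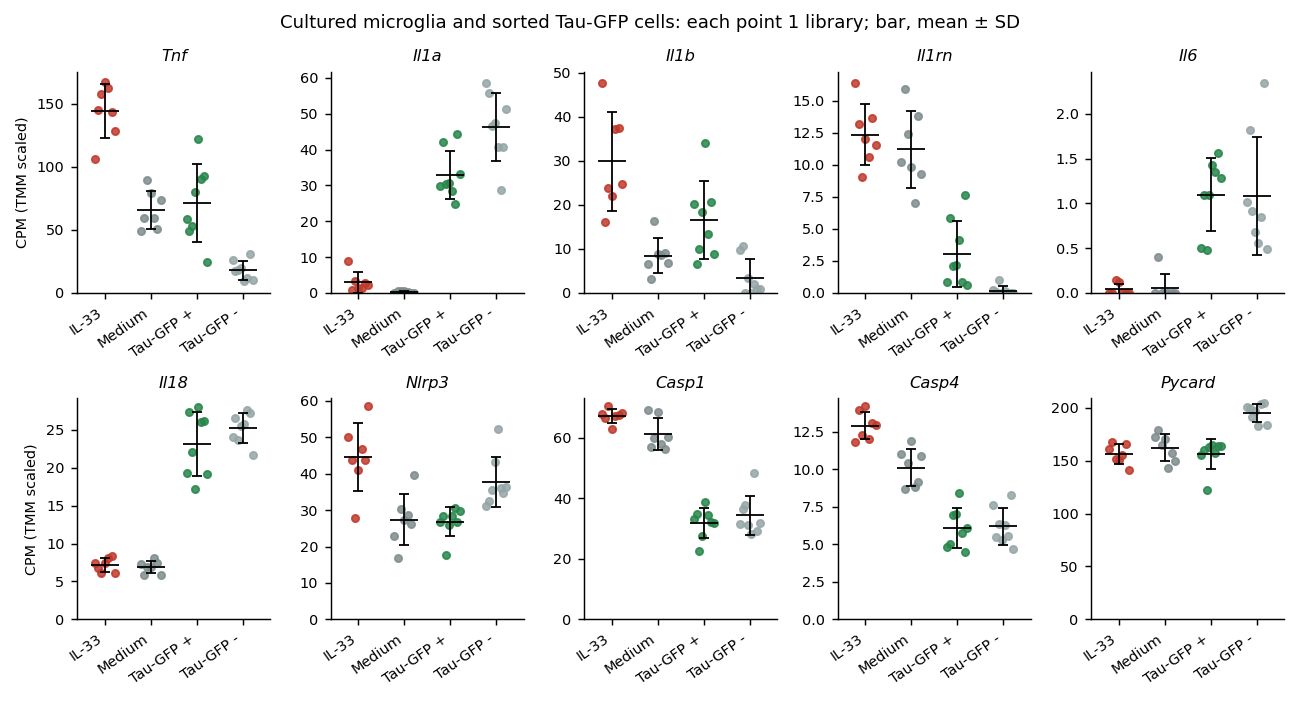
Level in CPM (y axis, from 0) of the 10 genes in cultured microglia with IL-33 or medium (7 libraries each) and in Tau-GFP plus or negative cells (8 each). Each library is 1 point, with a bar for mean ± SD. Tnf separates IL-33 (107 to 167 CPM) from medium (49.3 to 89.2 CPM), and Il1a is near 0 in both kinds of culture but at 24.9 to 58.7 CPM in the sorted cells.

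Tau-GFP plus cells were compared with Tau-GFP negative cells, in which GFP should come from neurons and reach microglia with engulfed material. Among the cytokines, Tnf and Il1b were higher in Tau-GFP plus cells, while Il1a and the inflammasome genes Nlrp3 and Pycard were lower. Il6, Il18, Casp1 and Casp4 did not pass. That is 5 of 9 members tested, where 37.7% of all 12137 genes were called, 20.7% higher and 16.9% lower. The members' median log2 change was -0.10, against 0.01 over all genes.

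Tnf had 24.3, 69.1 and 122 CPM in Tau-GFP plus cells, against 9.57, 18.1 and 31.0 CPM in Tau-GFP negative cells. The groups overlapped through Tau-GFP plus replicate 8, the lowest of its group, and the log2 fold change was 1.98 ± 0.29 (adjusted p = 4.4e-05). Il1b had 6.53, 15.9 and 34.1 CPM in Tau-GFP plus cells, against 0, 1.40 and 10.7 CPM in Tau-GFP negative cells, where 2 libraries had no count. Its log2 fold change was 2.25 ± 0.68 (adjusted p = 0.014). Il1rn had 0.64 to 7.62 CPM in Tau-GFP plus cells and 0 to 1.00 CPM in Tau-GFP negative cells, and fell below the filter. With no filter it was called higher (log2 fold change 3.91, adjusted p = 0.0010).

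Il1a moved opposite to Il1b, with 24.9, 30.6 and 44.3 CPM in Tau-GFP plus cells and 28.8, 47.1 and 58.7 CPM in Tau-GFP negative cells (-0.48 ± 0.14, adjusted p = 0.011). Nlrp3 had 17.6, 27.6 and 30.7 CPM in Tau-GFP plus cells, against 31.0, 35.8 and 52.3 CPM in Tau-GFP negative cells, with no overlap (-0.49 ± 0.12, adjusted p = 0.0028). Pycard averaged 156 ± 14.2 and 195 ± 8.51 CPM, again without overlap (-0.32 ± 0.06, adjusted p = 2.3e-04). Casp1 stood at 31.9 ± 4.93 CPM in Tau-GFP plus cells and 34.3 ± 6.51 CPM in Tau-GFP negative cells (-0.10 ± 0.12, adjusted p = 0.53). Il18 stood at 23.2 ± 4.23 and 25.3 ± 2.02 CPM (adjusted p = 0.39). Casp4 had 6.07 ± 1.33 and 6.19 ± 1.23 CPM (adjusted p = 0.92), and Il6 had 1.10 ± 0.407 and 1.08 ± 0.657 CPM (adjusted p = 0.97).

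Markers of other cells moved with this sort. All 7 markers of border-associated macrophages, the macrophages of meninges and vessels, were called higher, with a summed level of 2373 to 6629 CPM in Tau-GFP plus libraries, against 411 to 635 CPM in Tau-GFP negative libraries. All 10 microglial markers were called lower (sums of 19727 to 30686 CPM, against 40635 to 48257 CPM), and all 6 neuronal and all 6 mural markers were higher. Immediate early and dissociation-stress genes, which respond within minutes to handling, summed to 1989 to 5039 CPM in Tau-GFP plus libraries and 1090 to 1898 CPM in Tau-GFP negative libraries, with 10 of 17 called higher. The highest macrophage and immediate early sums, 6629 and 5039 CPM, were both in Tau-GFP plus replicate 5, which also had the highest Tnf and Il1b, 122 and 34.1 CPM. In the single-cell libraries, cells led by the border macrophage markers held 138 CPM of Tnf and 310 CPM of Il1b, against 11.1 and 12.9 CPM in microglia-like cells. In the same order, Pycard stood at 256 and 534 CPM and Il1a at 43.6 and 52.2 CPM. Nlrp3 stood at 35.2 and 25.8 CPM. The part of border macrophages, of the lower microglial markers and of handling in the member differences, higher or lower, was not tested. Endothelial markers summed to over 300 CPM in 5 libraries (up to 2686 CPM in Tau-GFP plus replicate 3). Without those 5, Il1a was no longer called (-0.40, adjusted p = 0.13), and Tnf, Il1b, Nlrp3 and Pycard were.

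Around the members, 14 of 25 tested inflammasome and pyroptosis genes changed, 8 higher and 6 lower, where 37.7% of all genes were called. Nlrc4, a sensor of bacterial flagellin and secretion systems, stood at 8.30 ± 3.98 CPM in Tau-GFP plus cells and 0.560 ± 0.457 CPM in Tau-GFP negative cells (3.86 ± 0.50, adjusted p = 1.0e-05). Its upstream receptors Naip6, Naip5 and Naip2 were lower (-0.80, -0.62 and -0.52), although reads of these near-identical copies may be shared. Gsdmd, the pore-forming substrate of caspase-1 and caspase-11, had 109 ± 11.9 and 158 ± 16.7 CPM (-0.53 ± 0.08, adjusted p = 2.9e-05). P2rx4, an ATP-gated channel, Ninj1, and the RNA-binding proteins Carhsp1 and Zfp36, which act on the Tnf message, were higher by 0.78, 0.69, 0.80 and 0.87. Of 8 tested IL-6 pathway genes 6 were lower, among them the receptor chains Il6st (-0.70) and Il6ra (-0.72) and the transcription factor Stat3 (-0.30). Of 14 tested TNF pathway genes, Rhbdf2 was higher (0.39) and 5 were lower, including Adam17 (-0.43), Casp8 (-0.38) and Tnfrsf1b (-0.45). Of 14 tested IL-1 family genes, the decoy Il18bp (1.02), Irak3 (1.12) and Tollip (0.31) were higher, and Irak2 (-0.43) and Irak1 (-0.20) were lower. Among the other cytokines Csf1 was higher (0.67) and Il16 lower (-0.53).

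TMRM high cells were compared with TMRM low cells, which differ in dye taken up by their mitochondria. Tnf, Il1a, Il1b, Il1rn, Nlrp3, Casp4 and Pycard were higher in TMRM high cells, and none was lower. Il6, Il18 and Casp1 did not pass. That is 7 of 10 members, where 30.3% of all 10714 genes were called, 20.4% higher and 9.84% lower. The members' median log2 change was 0.49, against 0.06 over all genes.

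FPKM are scaled by length, so that levels can be set side by side between genes. In TMRM high cells Tnf was the most abundant (385 ± 38.3 FPKM), followed by Il1a (109 ± 14.1), Pycard (106 ± 5.85) and Il1b (72.6 ± 8.74). Il1a and Pycard lay within 1 SD of each other. Casp1 (19.6 ± 4.13), Nlrp3 (17.9 ± 2.96), Il18 (17.1 ± 2.46) and Il1rn (14.9 ± 2.86 FPKM) formed a second tier with overlapping spreads, above Casp4 (8.51 ± 1.37) and Il6 (1.36 ± 0.687 FPKM). In TMRM low cells the order was Tnf (94.3 ± 18.4), Pycard (81.2 ± 10.2), Il1a (66.5 ± 15.7), Il1b (17.9 ± 9.52), Il18 (17.2 ± 5.15), Casp1 (15.3 ± 5.52), Nlrp3 (12.4 ± 2.37), Casp4 (6.05 ± 2.07), Il1rn (4.16 ± 4.05) and Il6 (1.07 ± 1.04 FPKM). Of these neighbours, only Il1a and Il1b and Nlrp3 and Casp4 lay further apart than the sum of their SDs.

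Tnf had 325, 374 and 444 FPKM in TMRM high libraries, against 67.9, 92.5 and 128 FPKM in TMRM low libraries, with a wide gap between the groups (log2 fold change 2.03 ± 0.10, adjusted p = 6.1e-12). Il1b had 58.3, 75.9 and 81.0 FPKM in TMRM high, against 5.27, 15.6 and 34.4 FPKM in TMRM low (2.13 ± 0.24, adjusted p = 1.1e-06), and Il1a had 83.8, 107 and 127 FPKM, against 33.8, 69.2 and 82.9 FPKM (0.74 ± 0.14, adjusted p = 3.5e-04). For both interleukins the groups did not overlap, and the share over all genes was not counted. Il1rn had 11.2, 14.6 and 19.8 FPKM in TMRM high and 0.993, 2.76 and 13.4 FPKM in TMRM low (1.88 ± 0.27, adjusted p = 2.3e-05). A single library, TMRM low replicate 3, made these groups overlap, and without it the next highest TMRM low value was 6.27 FPKM.

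Of the inflammasome members, the sensor Nlrp3 had 13.7, 16.99 and 22.3 FPKM in TMRM high and 7.77, 12.6 and 15.7 FPKM in TMRM low (0.51 ± 0.12, adjusted p = 0.0024). Pycard had 97.8, 106 and 118 FPKM in TMRM high and 65.7, 81.5 and 102 FPKM in TMRM low (0.39 ± 0.07, adjusted p = 1.5e-04). Casp4 had 5.81, 8.52 and 10.4 FPKM in TMRM high and 3.12, 5.63 and 9.10 FPKM in TMRM low (0.47 ± 0.15, adjusted p = 0.022). Casp1 and Il18 stayed within the spread, at 0.40 ± 0.21 (adjusted p = 0.17) and 0.04 ± 0.16 (adjusted p = 0.87), as did Il6 (0.28 ± 0.25, adjusted p = 0.42).

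**Figure D3:**
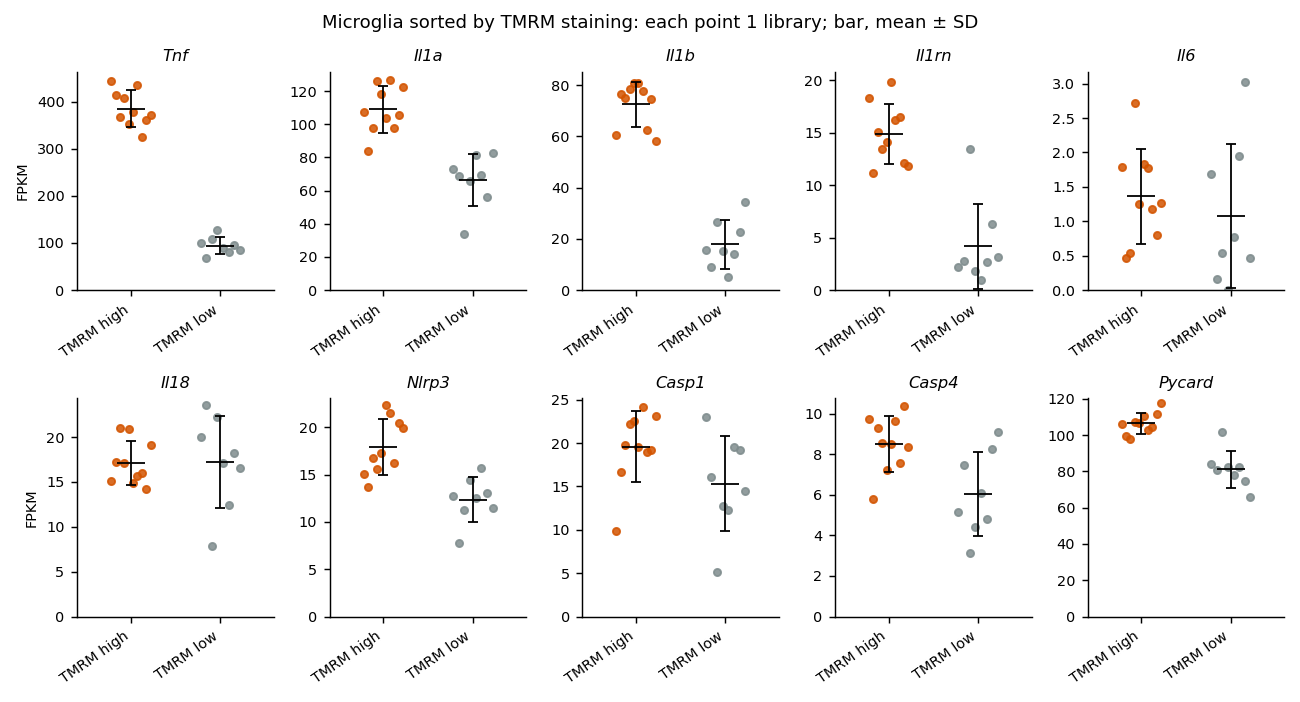
Level in FPKM (y axis, from 0) of the 10 genes in TMRM high (10 libraries) and TMRM low (8 libraries) cells, with 1 point per library and a bar for mean ± SD. Tnf, Il1a and Il1b do not overlap between the groups, and TMRM low replicate 3 is the lowest library for Casp1, Casp4, Il1a and Il18 and the highest TMRM low library for Il1rn and Pycard.

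Of 10 other cytokines tested, 6 were higher and 1, Il16, was lower (-0.30 ± 0.08, adjusted p = 0.0088), and their median log2 change was 1.48, against 0.06 over all genes. Ifnb1, interferon beta, stood at 43.9 ± 9.56 FPKM in TMRM high and 3.97 ± 4.13 FPKM in TMRM low (3.61 ± 0.39, adjusted p = 7.1e-07). Il23a, a subunit of interleukin-23, stood at 9.90 ± 3.61 and 0.274 ± 0.383 FPKM (3.08 ± 0.20, adjusted p = 5.5e-10). Il10, an anti-inflammatory cytokine, stood at 5.37 ± 2.62 and 0.353 ± 0.712 FPKM (2.23 ± 0.26, adjusted p = 1.9e-06). Among 14 tested TNF pathway genes 3 were higher, led by Tnfaip3 with 151 ± 23.3 FPKM in TMRM high and 53.5 ± 17.7 FPKM in TMRM low (1.55 ± 0.18, adjusted p = 2.3e-06). Among 14 tested IL-1 family genes, Tollip, Irak4 and Il18bp were higher, and the decoy receptor Il1r2 was lower, at 1.36 ± 0.792 and 6.49 ± 3.12 FPKM (-1.55 ± 0.32, adjusted p = 9.6e-04). Of 21 tested inflammasome and pyroptosis genes, 3 were higher and 5 lower, where 30.3% of all genes were called. The ATP-gated channel P2rx4 was higher (0.69 ± 0.09, adjusted p = 3.9e-06) while the related channel P2rx7, which can trigger the NLRP3 inflammasome, was lower (-0.34 ± 0.08, adjusted p = 0.0029). Txnip, a thioredoxin inhibitor, was lower by the most, at 100.3 ± 22.1 and 216 ± 38.9 FPKM (-1.11 ± 0.14, adjusted p = 5.5e-06). Of 8 tested IL-6 pathway genes, Jak1 was higher (0.37) and Il6ra lower (-0.47).

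Other markers moved with the TMRM sort as well. All 7 neutrophil markers were lower in TMRM high, with summed levels of 16.03 to 768 FPKM in TMRM high and 639 to 2299 FPKM in TMRM low, and 5 of 7 border macrophage markers were higher (121 to 211 FPKM, against 51.3 to 134 FPKM). Microglial markers summed to 8709 to 9905 FPKM in TMRM high and 9087 to 10632 FPKM in TMRM low, with 7 of 10 called lower. Immediate early genes were lower as a sum in TMRM high (5401 to 7801 FPKM, against 8265 to 10173 FPKM), although the NF-kB feedback genes Nfkbia and Nfkbiz were the 2 of 17 called higher and 7 were called lower. Cell cycle markers summed to 426 to 538 FPKM in TMRM high and 227 to 383 FPKM in TMRM low. The part of these differences in the member values was not tested. Choroid plexus markers reached 34003 and 6286 FPKM in TMRM low replicates 2 and 7, and without these 2 libraries the same 7 members were called.

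ST2 KO was compared with ST2 Het in summed microglia-like cells to ask which genes differ without the receptor at day 9. Tnf and Casp4 fell in ST2 KO, no member rose, and the other 7 members tested did not pass. That is 2 of 9 members, where 0.603% of all 11604 genes were called, 0.31% higher and 0.293% lower. The members' median log2 change was -0.12, against -0.00 over all genes. Il1rl1, the targeted gene, had 30 and 28 UMIs in ST2 KO and 37 and 46 UMIs in ST2 Het, or 7.37 and 6.15 CPM against 5.43 and 6.54 CPM. These reads come from the 3′ end, the labels do not give the deleted part, and so Il1rl1 does not check the genotype here.

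Tnf had 9.58 and 9.22 CPM in the 2 ST2 KO libraries, against 17.8 and 19.3 CPM in the 2 ST2 Het libraries (-0.98 ± 0.16, adjusted p = 0.016). Casp4 had 9.58 and 9.00 CPM in ST2 KO, against 17.9 and 17.1 CPM in ST2 Het (-0.91 ± 0.15, adjusted p = 0.019). Within each group the 2 values were close to each other, and the groups stood apart. These values rest on 39 to 136 UMIs of each gene per library, and the calls are fragile. Tnf lost its call without ST2 Het replicate 2 or without either ST2 KO replicate, and Casp4 lost its call without any 1 of the 4 libraries, while the log2 changes stayed at -1.03 to -0.92 for Tnf and -0.96 to -0.87 for Casp4. DESeq2 called neither gene (-0.97 and -0.91). Without the cluster led by immediate early genes, which held 15.2% and 13.8% of microglia-like cells in ST2 KO and 15.9% and 17.8% in ST2 Het, neither was called (Tnf -0.79, adjusted p = 0.27, and Casp4 -0.58, adjusted p = 0.46). Neither was called without the cell-cycle-led clusters (-0.88 and -0.89), and in all kept cells Tnf was not (-0.61).

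Il1b had 0.982 and 5.71 CPM in ST2 KO, from 4 and 26 UMIs, against 19.8 and 12.5 CPM in ST2 Het, from 135 and 88 UMIs. The log2 change was -2.21 ± 0.45, but the adjusted p was 0.053. The groups did not overlap, nor did those of the uncalled Il1a and Nlrp3, which carries little weight with 2 libraries a group. Leaving out 1 library moved the change between -4.02 (without ST2 KO replicate 2, adjusted p = 0.011) and -1.50 (without ST2 KO replicate 1, adjusted p = 0.36). Il1b passed in 6 of 14 alternative settings, among them RLE size factors (adjusted p = 0.049), no low-count filter, no cell-cycle-led clusters and no ST2 Het replicate 2. It did not pass in the rest. Over the 14, its change ranged from -4.02 to -0.98 and its adjusted p reached 0.63. Il1a had 20.9 and 25.5 CPM in ST2 KO and 60.2 and 30.6 CPM in ST2 Het, where the 2 libraries differed most (-0.96 ± 0.26, adjusted p = 0.20). Without ST2 Het replicate 2, Il1a was called (-1.37, adjusted p = 7.2e-04), as it was with no low-count filter, and without ST2 Het replicate 1 its change was -0.39. Il1a passed in 3 of 14 alternative settings, and its adjusted p reached 0.72. The inflammasome genes Nlrp3 (26.8 and 24.8 CPM in ST2 KO, 27.03 and 29.01 CPM in ST2 Het) and Pycard (496 and 539 CPM, against 523 and 481 CPM) had adjusted p of 0.78 and 0.86. Casp1 stood at 31.0 and 40.0 CPM in ST2 KO and 38.2 and 38.7 CPM in ST2 Het (adjusted p = 0.84), Il18 at 45.2 and 42.6 CPM against 45.4 and 41.7 CPM (adjusted p = 0.99), and Il6 at 2.21 and 1.32 CPM against 1.47 and 1.85 CPM (adjusted p = 0.98). Il1rn had 3 UMIs over the 4 libraries.

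Of 17 immediate early and dissociation-stress genes 9 fell and none rose, and their sum was 2753 to 2875 CPM in ST2 KO and 3708 to 4050 CPM in ST2 Het. Nfkbia stood at 78.1 ± 8.75 CPM in ST2 KO and 209 ± 16.9 CPM in ST2 Het (-1.41 ± 0.08, adjusted p = 4.5e-06), and Nfkbiz at 15.5 ± 3.86 and 44.8 ± 6.43 CPM (-1.52 ± 0.16, adjusted p = 4.7e-04). Tnfaip3 was the single call among 14 tested TNF pathway genes, at 12.1 ± 0.0314 and 23.3 ± 0.942 CPM (-0.95 ± 0.13, adjusted p = 0.0054). None of 11 tested IL-1 family genes, 8 IL-6 pathway genes or 7 other cytokines was called in either direction, and Zfp36 fell among 24 inflammasome and pyroptosis genes (-0.49). With 1 library left out, the Zfp36 call was lost in 3 of 4 fits and the Tnfaip3 call in 1 of 4. A Xist UMI was present in 76.4% and 72.3% of microglia-like cells in ST2 KO and 98.7% and 99.3% in ST2 Het. Among cells with a Xist UMI, Tnf was called (-0.96) and Casp4 was not (-0.77, adjusted p = 0.057). The part of handling and of sex in these differences was not tested.

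**Figure D4:**
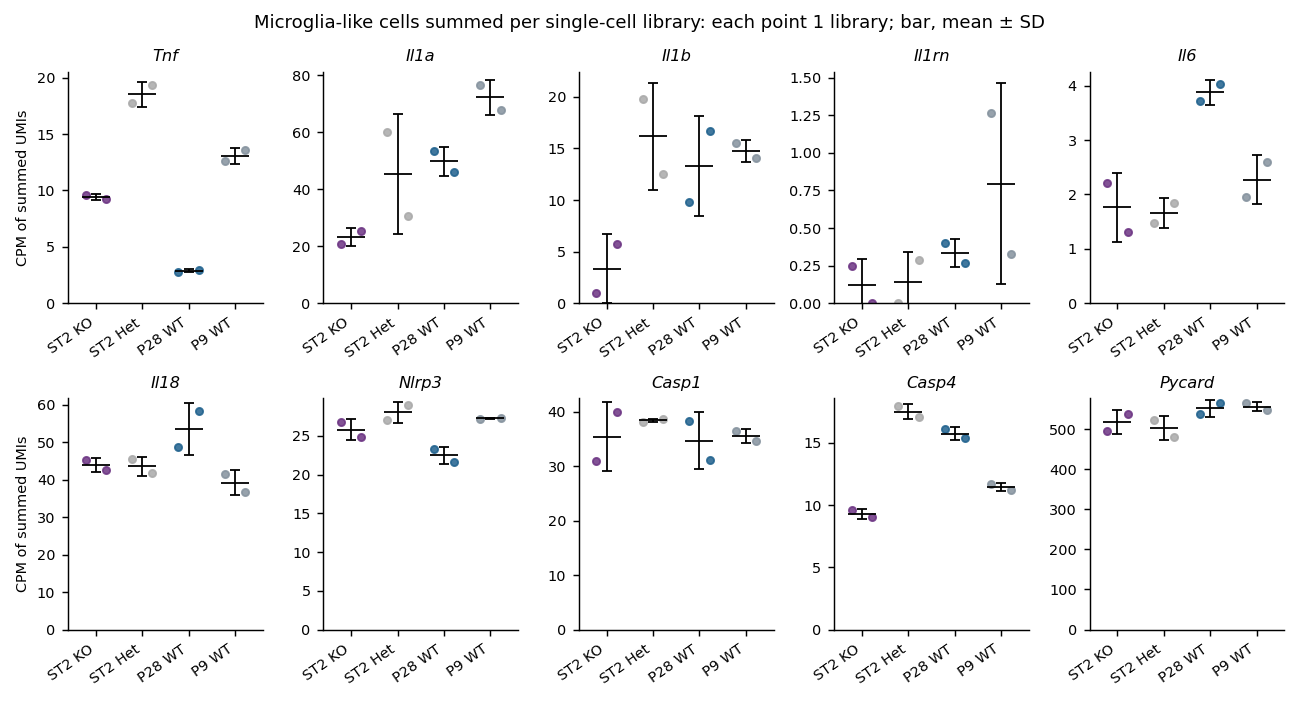
Level in CPM (y axis, from 0) of the 10 genes in summed microglia-like cells of ST2 KO, ST2 Het, P28 and P9 libraries (2 each), with 1 point per library and a bar for mean ± SD. Tnf and Casp4 lie lower in both ST2 KO libraries than in both ST2 Het libraries, and Tnf is lowest at P28 (2.79 and 2.96 CPM).

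P28 microglia were compared with P9 microglia of wild-type mice to follow the cytokines over cortical maturation. Tnf, Il1a and Nlrp3 fell at P28, and Il18 and Casp4 rose. That is 5 of 9 members tested, where 53.6% of all genes were called, 27.5% higher and 26.1% lower. The members' share is near that over all genes, so the count is not read as a change particular to them. The members' median log2 change was -0.03, against 0.06 over all genes.

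Tnf had 2.79 and 2.96 CPM at P28, against 12.6 and 13.6 CPM at P9, a log2 change of -2.18 ± 0.18 (adjusted p = 3.7e-07), the largest of the members. Il1a had 53.4 and 46.2 CPM at P28, against 76.5 and 68.0 CPM at P9 (-0.54 ± 0.20, adjusted p = 0.033), and Nlrp3 had 23.3 and 21.7 CPM, against 27.2 and 27.3 CPM (-0.28 ± 0.10, adjusted p = 0.032). None of the 3 overlapped between ages, nor did Il18, Casp4 or the uncalled Il6. With 2 libraries a group this carries little weight, and the share over all genes was not counted. Il18 had 48.6 and 58.4 CPM at P28 and 41.6 and 36.8 CPM at P9 (0.45 ± 0.10, adjusted p = 0.0019), and Casp4 had 16.1 and 15.3 CPM at P28 and 11.7 and 11.2 CPM at P9 (0.45 ± 0.13, adjusted p = 0.0083). Il1b had 9.83 and 16.7 CPM at P28 and 15.5 and 14.03 CPM at P9 (-0.16 ± 0.29, adjusted p = 0.67). Il6 had 3.72 and 4.04 CPM at P28 and 1.95 and 2.59 CPM at P9 without passing (0.78 ± 0.32, adjusted p = 0.057), and Casp1 and Pycard had log2 changes of -0.03 and -0.01. The Nlrp3 call was lost without any 1 of the 4 libraries. The Il1a call was lost without P9 replicate 1 or either P28 replicate, and the Casp4 call without P9 replicate 2. Tnf and Il18 were called whichever library was left out, and in all kept cells the Tnf change was -1.21.

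Cell composition differed between the ages. Cell-cycle-led clusters held 0% of microglia-like cells at P28 and 28.8% and 30.4% at P9, and without them Casp4 was not called (0.13, adjusted p = 0.48). Cells of the cluster led by immediate early genes made up 2.30% and 2.42% of microglia-like cells at P28 and 7.91% and 8.72% at P9, and without them Il1a (-0.18) and Nlrp3 (-0.27, adjusted p = 0.052) were not called, while Casp4 rose by 1.19. Border macrophage markers summed to 32.7 to 34.9 CPM at P28 and 286 to 301 CPM at P9, and neutrophil markers to 57.3 to 92.5 CPM and 5.75 to 8.74 CPM. Of 17 immediate early and dissociation-stress genes 4 were called higher and 11 lower, with sums of 1841 to 1919 CPM at P28 and 2316 to 2412 CPM at P9. Of 10 microglial markers 8 were called higher (sums of 31452 to 32151 CPM, against 24830 to 25559 CPM). Microglia-like cells had median UMI counts of 2296 and 2232 at P28 and 3831 and 4071 at P9. The part of these differences in the members' changes was not tested.

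Of 11 tested IL-1 family genes 2 rose and 3 fell, with Sigirr, an inhibitory receptor, at 1.61 ± 0.204 CPM at P28 and 7.30 ± 0.561 CPM at P9 (-2.18 ± 0.27, adjusted p = 1.8e-05). Il1rl1 itself was called lower (-0.84 ± 0.32, adjusted p = 0.044), but its 2 P28 libraries differed. It had 1.99 and 5.38 CPM at P28, from 15 and 40 UMIs, and 7.02 and 6.15 CPM at P9. Leaving out 1 library gave 1 to 3 lower calls in this list. Of 8 tested IL-6 pathway genes 5 rose, led by Il6ra (0.80 ± 0.05, adjusted p = 5.0e-08). Of 14 tested TNF pathway genes 4 rose, among them Ltb (2.26 ± 0.20) and Birc3 (1.10 ± 0.12). Tnfaip3 was called lower (-0.30 ± 0.12, adjusted p = 0.043), a call lost without any 1 of the 4 libraries. Of 24 tested inflammasome and pyroptosis genes 10 rose and 4 fell. Gsdmd, Ninj1 and P2rx4 rose by 0.30, 0.50 and 0.29, and Pstpip1 fell by 2.45. Of 7 tested other cytokines 4 rose, among them Tnfsf13b, the B cell survival factor BAFF (2.87 ± 0.35, adjusted p = 1.5e-05). Over all genes 53.6% were called, 27.5% higher and 26.1% lower, so these counts are not read as changes particular to the lists.

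Within the microglia-like cells of the single-cell libraries, some of the members were unevenly spread, which is given as a description since the clusters were built from all genes. A cluster of 1152 microglia-like cells led by Fos, Klf2 and Egr1 held most Il1b UMIs in 7 of 8 libraries. It held 69.2% of the 26 Il1b UMIs in ST2 KO replicate 2 and none of the 4 in replicate 1, against 87.4% and 77.3% in ST2 Het. The shares were 68.9% and 71.8% at P28 and 51.6% and 72.3% at P9. The same cluster held 3.07% to 20.7% of all UMIs of microglia-like cells. Casp4, Il1a, Tnf and Nlrp3 were also more frequent per UMI there in all 8 libraries. Casp4 was so by 3.22 to 14.2 times, Il1a by 2.96 to 11.1 times, Tnf by 1.27 to 34.2 times and Nlrp3 by 1.21 to 4.08 times. Against the other microglia-like cells, Pycard was at 0.708 to 1.04 times, Il18 at 0.526 to 1.37 times, Casp1 at 0.864 to 1.84 times and the sparse Il6 at 0 to 2.03 times.

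Across cell classes, with all libraries summed, Il1b, Tnf and Il1rn stood higher in border-macrophage-led and neutrophil-led cells than in microglia-like cells. The neutrophil-led cluster is named for its strongest marker list, and its leading genes also included H2-Aa, H2-Eb1 and Cd74. Among genes present in at least 50% of its cells, the leading ones included Cd74, Plac8 and Hp and no listed neutrophil marker. Plac8 and Hp are on the monocyte list, so the values of this cluster are not credited to neutrophils alone. Neutrophil-led cells (99 cells) held 640 CPM of Il1b, border-macrophage-led cells (649 cells) 310 CPM and endothelial-led cells (185 cells) 1.79 CPM, against 12.9 CPM in microglia-like cells. Tnf was at 47.9, 138 and 1.79 CPM in these 3 classes, against 11.1 CPM in microglia-like cells, and Il1rn at 23.97, 13.99 and 1.79 CPM, against 0.420 CPM. In border-macrophage-led cells Il1b and Tnf exceeded the level of microglia-like cells in each of the 8 libraries, with 215 to 678 CPM of Il1b and 34.3 to 297 CPM of Tnf. Several of the summed values rest on 1 library. Without the single neutrophil-led cell of ST2 KO replicate 2, which held 9 of the 20 Tnf UMIs, Tnf in neutrophil-led cells was at 27.1 CPM, and without P28 replicate 1 it was at 77.0 CPM. Il1rn in border-macrophage-led cells was at 5.63 CPM without P28 replicate 1. In neutrophil-led cells Il1rn was at 13.2 CPM without P9 replicate 1 and 40.5 CPM without P28 replicate 1. In microglia-like cells it was at 0.236 CPM without P9 replicate 1. The endothelial-led values of 1.79 CPM are 1 UMI each. Pycard was lower in border-macrophage-led cells (256 CPM) than in microglia-like cells (534 CPM), and this held in all 8 libraries. Il1a was at 43.6 CPM in border-macrophage-led cells and 52.2 CPM in microglia-like cells, with overlapping counting intervals and, in P28 replicate 1, the opposite order (130 CPM against 54.6 CPM). Casp4 was at 63.2 CPM in border-macrophage-led cells and 13.7 CPM in microglia-like cells.

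**Figure D5:**
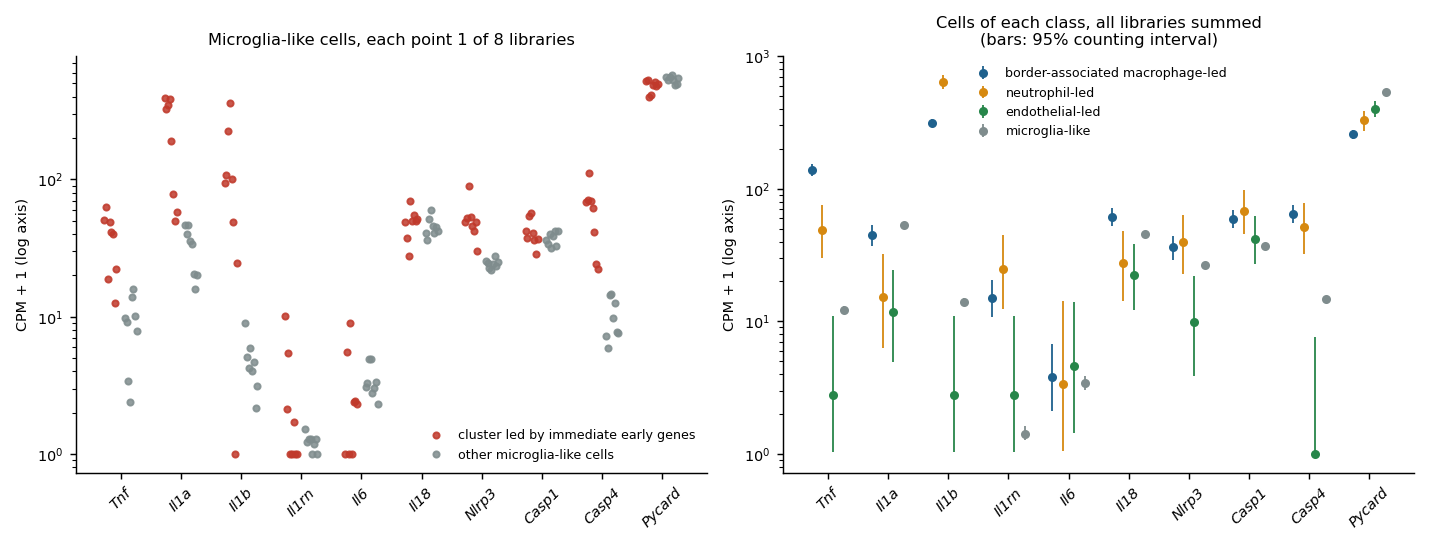
Left, level in CPM + 1 (log axis) of each gene in the cluster led by immediate early genes (red) and in other microglia-like cells (grey), 1 point per library. Right, level over all libraries in each cell class with 95% counting intervals, in which Il1b is highest in neutrophil-led and border-macrophage-led cells (640 and 310 CPM) and Pycard in microglia-like cells (534 CPM).

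The share of microglia-like cells with a Tnf UMI was 5.48% and 4.62% in ST2 KO and 6.97% and 7.14% in ST2 Het, and 0.530% and 0.415% at P28 and 3.84% and 4.11% at P9. After thinning every cell to 1000 UMIs it was 1.10% and 0.256% in ST2 KO and 2.08% and 1.71% in ST2 Het, and 0.213% and 0.175% at P28 and 1.25% and 0.768% at P9, with 0 to 30 shallower cells left out per library. In endothelial-led cells, which should lack the gene, 1 of 185 cells had a Tnf UMI (0.541%, counting interval 0.0137% to 2.97%). Their median depth was 2001 UMIs, against 3501 UMIs in microglia-like cells. That UMI was in P9 replicate 2, and the P28 libraries gave only 1 and 5 endothelial-led cells, with no Tnf UMI. The P28 shares lay at or below 0.541%, but these cells are too few to set a background level for P28. The share of microglia-like cells with an Il1b UMI was 0.626% and 1.28% in ST2 KO and 3.29% and 2.68% in ST2 Het. After thinning it was 0 of 639 cells and 0.385% in ST2 KO, against 1.52% and 0.732% in ST2 Het. A count of 0 (taken as up to 3 cells) allows a share of up to 0.469% of cells with a UMI at the thinned depth, which is no limit on cells expressing the gene. These limits cover counting error only.

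Over the 30 bulk libraries of the count table, after removing group means, the levels most like Tnf among 12729 genes were Egr3 (r = 0.79) and Cxcl2 (r = 0.74). For Il1b they were Nfkbiz (0.76) and Ric8 (0.75), for Pycard Cyba (0.80) and Gna15 (0.76), and for Casp1 Pias1 (0.79) and Gpr108 (0.76). Members resembled each other less, with the highest correlations between Il6 and Pycard (0.51), Casp1 and Pycard (0.49), Il6 and Tnf (0.45) and Il1b and Tnf (0.44). These values share libraries, depth and handling, and they carry no p.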

How the data were processed

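All members and gene lists were chosen with earlier results of these data known. The genes named are all members, and, in each list, up to 5 called genes per direction with the smallest adjusted p. The authors deposited bulk values of the RSEM kind (estimated counts per gene, expected counts; the submitters' processing notes name RSEM and Bowtie2), of which 25.3% were not whole and were rounded. FPKM of the TMRM libraries were deposited by the authors (TopHat2 2.0.10 and Cufflinks 2.0.2, per the submitters' processing notes, mm10), and values marked as failed (0 to 7 per library) were treated as missing. UMI counts per cell were deposited by the authors (Cell Ranger, per the submitters' processing notes). Barcodes needed 500 or more genes and a mitochondrial share below 10% (15335 of 15507 passed). They were clustered with scanpy 1.11.5 (Leiden, 17 clusters), and 13 clusters were called microglia-like by marker level, with a fold limit of 0.7 set after the data were seen. No doublet caller was used. UMIs were summed per library.

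Counts were tested with edgeR 4.0.16 (TMM, default expression filter, quasi-likelihood), with all 8 single-cell libraries in 1 fit. FPKM were tested with limma 3.58.1 on log2(FPKM + 1) where a gene's mean reached 1 FPKM, which understates changes of low genes. Printed bulk CPM use 1 TMM scaling over 30 libraries, while fold changes use the scaling of each comparison. The steps were tested on simulated data. Of the count table, 5 columns that match no sample were not used, and 27 symbols turned into dates hold 0.134% of counts. R 4.3.3 was used. Alternatives are given in the closing section. Replicate numbers were not taken to pair the libraries, although the check given there does not exclude pairing in the Tau-GFP sort. Counting intervals (exact, 95%) cover counting error only.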

Additional observations from a re-analysis of the deposited data

Results flagged for a closer look

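In 60 pairs of a gene and a group of 7 to 10 libraries, 8 had 1 library set apart from the rest of its group, where chance alone gives about 1 in 20, or 3. Il1a stood at 9.01 CPM in IL-33 replicate 1, against 3.22 CPM in the next highest library. Il6 stood at 0.401 CPM in medium replicate 2 and at 0 in the other medium libraries. In Tau-GFP plus replicate 3, Nlrp3 stood at 17.6 CPM (nearest library 25.8 CPM) and Pycard at 122 CPM (nearest 155 CPM), and this library also had the highest endothelial marker sum, 2686 CPM. In Tau-GFP negative cells, Il1rn stood at 1.00 CPM in replicate 3 (nearest 0.254 CPM) and Casp1 at 48.3 CPM in replicate 6 (nearest 37.7 CPM). Casp1 stood at 9.81 FPKM in TMRM high replicate 1 (nearest 16.6 FPKM). Il1rn stood at 13.4 FPKM in TMRM low replicate 3 (nearest 6.27 FPKM).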

How the results depend on the processing

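Member counts with IL-33, in the Tau-GFP sort and in the TMRM sort stayed within 1.5 times of those reported under every alternative run. Of 2 members lower in ST2 KO, DESeq2 called 0, no low-count filter 4, the replicate block 4, and all kept cells, the 4 libraries alone, no cell-cycle-led clusters and cells with a Xist UMI 1 each. Over all genes, no low-count filter called 258 higher and 113 lower and the replicate block 260 and 85, against 36 and 34 in the reported fit. Without the immediate-early-led cluster the count was 0, and leaving out 1 library gave 0 to 2. Of 2 members higher at P28, DESeq2, all kept cells and no cell-cycle-led clusters gave 1 each, and leaving out 1 library gave 1 to 2. Of 3 lower at P28, DESeq2, all kept cells and no immediate-early-led cluster gave 1 each, and leaving out 1 library gave 1 to 3. The Xist, immediate-early, endothelial and choroid alternatives were chosen after seeing the data. The causes were not tested.

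Signs turned for uncalled members. In ST2 KO, Casp1 was 0.018 without cell-cycle-led clusters, Il6 -0.049 without the immediate-early-led cluster and Il18 -0.050 in cells with a Xist UMI. At P28, Pycard was 0.019 with no filter and 0.026 in all kept cells, and Il1b 0.28 in all kept cells. With 1 library left out, values ranged as follows: Casp4 from -0.11 to 0.043 and Il6 from -0.084 to 0.27 in the Tau-GFP sort; Il6 from -0.33 to 0.41, Pycard from -0.019 to 0.11, Il18 from -0.051 to 0.079 and Casp1 from -0.32 to 0.056 in ST2 KO; Pycard from -0.035 to 0.050, Casp1 from -0.17 to 0.13 and Il1b from -0.57 to 0.20 at P28; and Il18 from -0.10 to 0.11 in the TMRM sort. Same-numbered libraries correlated at -0.07 to 0.28 (IL-33), -0.15 to 0.33 (Tau-GFP), 0.11 (ST2), 0.01 (age) and -0.18 to 0.12 (TMRM), and the numbers were not taken to pair them. In the Tau-GFP sort the median was 0.17, and 6 of 8 pairs were over 0.1. There 4 of 8 libraries were most like their own number, against 1 of 7 with IL-33 and 1 of 8 in the TMRM sort. Pairing is thus not excluded in the Tau-GFP sort, where the replicate block still called Tnf, Il1b, Il1a, Nlrp3 and Pycard. In the ST2 libraries 2 pairs are too few for this check, and the barcodes of both number 1 libraries carry the word redo, with nothing said of what they shared. There the replicate block also called Il1b (-2.19, adjusted p = 8.3e-12) and Il1a (-0.91, adjusted p = 5.4e-08) lower. That block used only the ST2 KO and ST2 Het libraries, which leaves little to estimate the spread. Calls over all genes rose with it to 260 higher and 85 lower, so its small adjusted p add little for these 2 genes. With the replicate block Casp4 was not called with IL-33 (0.35) or in TMRM high (0.44, adjusted p = 0.11), and TMRM calls over all genes fell to 1512 higher and 791 lower. Depth limits Il1rn in the single-cell libraries, with 24 UMIs in all microglia-like cells.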
